A study of Rattus norvegicus with 14 samples.

Results

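The hemidesmosome and basal adhesion genes are a set of 9 rat genes, named by symbol, whose products fix basal keratinocytes to the basement membrane or mark the basal layer. They are the integrin genes Itgb4, Itga6 and Itga3, the laminin genes Lama3 and Lamb3, the anchoring genes Dst and Col17a1, the transcription factor gene Tp63 and the cadherin gene Cdh3. Array probes were assigned to them through the accession each probe carries, looked up without its version in a RefSeq gene table. This found a probe for 4 of the 9 genes, Itgb4, Lamb3, Tp63 and Cdh3, among 18597 genes tested. Itga6, Itga3, Lama3, Dst and Col17a1 were matched to no probe and are not analysed here.

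Skin came from male CD hairless rats in 2 groups. The exposed group of 6 animals received 94 GHz millimetre waves for 3 h per day on 3 days per week over 5.5 months, and the sham group of 8 animals was unexposed. Both groups were of the same strain and sex, and the labels give no age. Each animal gave 1 skin biopsy and 1 one-colour Agilent array, so the tissue measured was whole skin and not isolated epidermis. The comparison asked whether chronic exposure changed gene expression in the skin.

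Hemidesmosomes are adhesion plaques on the underside of basal keratinocytes. In them the integrin made of the alpha 6 chain (Itga6) and the beta 4 chain (Itgb4) binds a laminin outside the cell, while plectin and dystonin (Dst) tie it to the keratin filaments inside, and the transmembrane collagen XVII (Col17a1) joins the same plaque. The alpha 3 and beta 3 chains of that laminin come from Lama3 and Lamb3, and it is also bound by the integrin with the alpha 3 chain (Itga3). The transcription factor p63 (Tp63) maintains the basal layer of stratified epithelia, and P-cadherin (Cdh3) joins neighbouring cells of the basal layer and hair follicle.

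Values are log2 processed signals minus the 75th percentile of the same array, so 0 is the signal at that percentile. Signals of different probes are not compared with each other. Differences are exposed minus sham on that log2 scale. The 75th percentile lay between 1075 and 1966 scanner units on exposed arrays and between 804.5 and 1967 on sham arrays. Sham animal 6 had the dimmest array and exposed animal 3 the next. The arrays lay on 4 slides, of which slide 3 held 3 of each group, slide 4 held 1 exposed and 3 sham arrays, slide 2 held 2 exposed arrays and slide 1 held 2 sham arrays. The basal keratin Krt14 averaged 7.02 ± 0.15 (SD, n = 6) in exposed rats, against 7.08 ± 0.18 (SD, n = 8) in sham rats, and the suprabasal keratin Krt1 averaged 7.40 ± 0.20 (SD, n = 6) in exposed rats, against 7.54 ± 0.23 (SD, n = 8) in sham rats, so epidermal keratins were measured well above that percentile in both groups. Biopsies differed in what lay beneath it, with the mean of the skeletal muscle markers, centred gene by gene, running from -1.71 to 4.53 in exposed and from -2.52 to 3.24 in sham animals. That muscle mean averaged 0.78 ± 2.18 (SD, n = 6) in exposed animals, against -0.58 ± 2.26 (SD, n = 8) in sham animals. Each of the 15 muscle markers measured was higher on average in exposed skin, against 7995 of all 18597 genes tested, and 0 passed the test. The markers were read in the same biopsies, so they are not 15 independent results. Exposed animal 2 (4.53) and sham animals 5 (3.24) and 7 (2.58) had the highest muscle means. In such tissue fewer cells of a type and less RNA per cell cannot be told apart.

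None of the 4 measured genes passed the test between exposed and sham skin. Itgb4, Lamb3 and Cdh3 were lower and Tp63 higher in exposed skin on average, and the values of the groups overlapped for each. Of the 4 genes 0 had an adjusted p under 0.05 in limma's fit over all 18597 genes, where the share of all genes called was 0%. At an unadjusted p under 0.05 there was 1 of 4, Itgb4, against a share of 3.42% of all genes (636 genes). The median difference of the 4 was -0.109, and that of all genes was -0.0193. That share moved with single arrays, to 1550 genes without sham animal 6 and to 988 without exposed animal 3, each with 0 genes past the adjusted threshold.

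Itgb4 (NCBI gene 25724) encodes the integrin chain whose long cytoplasmic tail binds plectin. Its 1 probe was well above background on all 14 arrays. Values in exposed animals 1 to 6 were 3.94, 3.77, 4.19, 3.57, 4.04 and 3.86, and values in sham animals 1 to 8 were 4.21, 4.05, 4.06, 4.18, 4.13, 3.92, 4.28 and 4.11. Exposed animals 2, 4 and 6 lay below every sham animal, while exposed animal 3 lay above 6 of the 8 sham animals. The means were 3.90 ± 0.21 (SD, n = 6) in exposed rats, against 4.12 ± 0.11 (SD, n = 8) in sham rats. The difference was -0.22 ± 0.092 (SE), which is 0.859 of the sham level, with a 95% interval from -0.42 to -0.024. In limma the unadjusted p was 0.0305 and the adjusted p over all genes was 1.00.

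The Itgb4 difference was of similar size once slide was taken into account, but its unadjusted p was then above 0.05. Blocking on slide gave -0.204 (unadjusted limma p of 0.135), the arrays of slide 3 alone gave -0.187 (0.327), and those of slide 4, with 1 exposed array, gave -0.239 (0.418). That p also depended on single animals and on scaling. Without exposed animal 4 the difference was -0.154 with an unadjusted limma p of 0.0881, and that p was also above 0.05 without exposed animal 2 (0.0677), exposed animal 6 (0.0528), sham animal 1 (0.0516) or sham animal 7 (0.0579). With quantile normalization the difference was -0.206 with an unadjusted limma p of 0.114. Without exposed animal 3, the exposed animal with the highest value, it was -0.279 with an unadjusted limma p of 0.00605 and an adjusted p of 0.815.

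**Figure D1:**
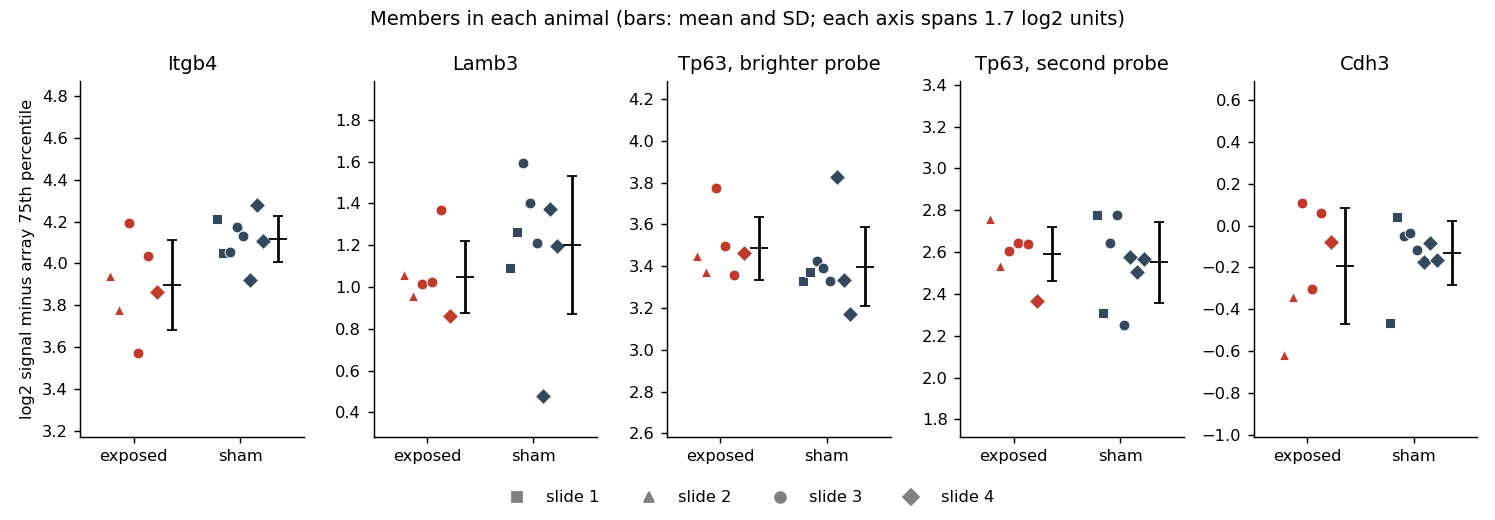
Level of each probe in each animal, with exposed animals in red on the left and sham animals in dark blue on the right of each panel; the vertical axes give log2 signal minus the array's 75th percentile, marker shapes give the slide, and bars give the mean and SD of each group. The groups overlap in every panel; sham animal 6 stands low for Lamb3 (0.48) and high for the brighter Tp63 probe (3.83), and the lowest Cdh3 value belongs to exposed animal 1 (-0.62).

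Lamb3 (NCBI gene 305078) encodes the laminin beta 3 chain, which keratinocytes make as part of the laminin that Itgb4 binds. Exposed animals 1 to 6 had 1.06, 0.96, 1.01, 1.02, 1.37 and 0.86, and sham animals 1 to 8 had 1.09, 1.26, 1.59, 1.40, 1.21, 0.48, 1.37 and 1.19. Apart from exposed animal 5 the exposed animals lay below 7 of the 8 sham animals, and the lowest value of all belonged to sham animal 6. The means were 1.05 ± 0.17 (SD, n = 6) in exposed rats, against 1.20 ± 0.33 (SD, n = 8) in sham rats, which makes a difference of -0.15 ± 0.14 (SE) with a 95% interval from -0.46 to 0.15 (limma, adjusted p = 1.00). Without sham animal 6 the difference was -0.256 with an unadjusted limma p of 0.0172 and an adjusted p of 0.533, and without sham animal 3, the highest, it was -0.0973. Blocking on slide gave -0.230, slide 3 alone -0.266 and slide 4 alone -0.157. The difference was -0.0796 with the mean of the basal keratins Krt5, Krt14 and Krt15 as a covariate.

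Tp63 (NCBI gene 246334) encodes p63, and 2 probes were matched to it. The brighter probe stood for the gene in the fit. It gave 3.45, 3.37, 3.78, 3.50, 3.36 and 3.46 in exposed animals 1 to 6 and 3.33, 3.37, 3.42, 3.39, 3.33, 3.83, 3.34 and 3.17 in sham animals 1 to 8. Exposed animal 3 and sham animal 6 stood above the rest, and the other 12 animals lay between 3.17 and 3.50. The means were 3.49 ± 0.15 (SD, n = 6) in exposed rats, against 3.40 ± 0.19 (SD, n = 8) in sham rats, which makes a difference of 0.088 ± 0.097 (SE) with a 95% interval from -0.12 to 0.29 (limma, adjusted p = 1.00). That difference was 0.0296 without exposed animal 3, 0.149 without sham animal 6 and 0.0551 without sham animal 8. Blocking on slide gave 0.113, slide 3 alone 0.160 and slide 4 alone 0.0197.

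The second Tp63 probe gave 2.76, 2.54, 2.61, 2.64, 2.64 and 2.37 in exposed animals 1 to 6 and 2.78, 2.31, 2.65, 2.78, 2.25, 2.58, 2.51 and 2.57 in sham animals 1 to 8. On this probe neither exposed animal 3 nor sham animal 6 stood apart. The difference was 0.040 ± 0.095 (SE). Over the 14 animals the probes of this gene hardly followed each other, with Pearson's r of 0.104 (permutation p = 0.738) and Spearman's rho of 0.143 (permutation p = 0.629), and r of 0.116 without exposed animal 3 and sham animal 6. The Tp63 locus is known to make several transcripts from alternative starts and ends, and which of them each probe reads was not tested.

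Cdh3 (NCBI gene 116777) encodes P-cadherin. Values in exposed animals 1 to 6 were -0.62, -0.34, 0.11, -0.30, 0.06 and -0.08, and values in sham animals 1 to 8 were -0.46, 0.04, -0.05, -0.04, -0.11, -0.17, -0.08 and -0.17. The exposed animals spread over a range that held every sham value. The means were -0.19 ± 0.28 (SD, n = 6) in exposed rats, against -0.13 ± 0.15 (SD, n = 8) in sham rats, which makes a difference of -0.064 ± 0.11 (SE) with a 95% interval from -0.31 to 0.18 (limma, adjusted p = 1.00). Its sign differed between settings. The exposed arrays of slide 2 averaged -0.48, the lowest of the 4 slides, and slide 2 held no sham array. The difference turned to 0.0365 when slide was a block, to 0.0230 on slide 3 alone, to 0.0636 on slide 4 alone and to 0.0207 when exposed animal 1 was left out.

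Differences between slides were tested in the same model with group as a term. Of the 4 genes 0 had an adjusted p under 0.05 in limma's F-test, and of all 18597 genes 0% did. The smallest unadjusted p among the 4 was that of Cdh3 (limma, 0.0978). The SD over the 14 arrays was 0.192 for Itgb4, 0.276 for Lamb3, 0.174 for Tp63 and 0.208 for Cdh3, against a median of 0.243 over all genes. Lamb3 was the only one of these 4 above that median.

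**Figure D2:**
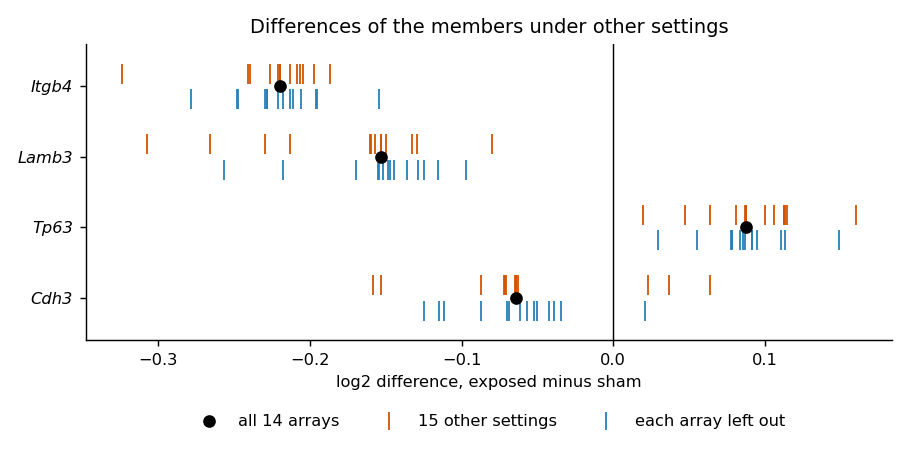
Log2 difference, exposed minus sham, of the 4 genes with all 14 arrays (black points), under 15 other settings of processing, slide, weights and covariates (orange ticks) and with each array left out in turn (blue ticks). Itgb4 (-0.324 to -0.154) and Lamb3 (-0.307 to -0.0796) stay below 0 and Tp63 (0.0197 to 0.160) above it, while Cdh3 takes either sign (-0.159 to 0.0636).

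The RefSeq promoter table (assembly GRCr8) holds the start of Lamb3, on chromosome 13, and of Tp63, on chromosome 11. Their promoters are shown to give the sequence before the start of the 2 genes, out of the 4 measured, that were matched in that table. Each run is the 250 bases before the annotated start, 5′ to 3′ on the gene's own strand, with E-boxes (CANNTG) and CCAAT boxes, both searched on either strand, in capitals.
Lamb3, chr13:107362303-107362552, plus strand: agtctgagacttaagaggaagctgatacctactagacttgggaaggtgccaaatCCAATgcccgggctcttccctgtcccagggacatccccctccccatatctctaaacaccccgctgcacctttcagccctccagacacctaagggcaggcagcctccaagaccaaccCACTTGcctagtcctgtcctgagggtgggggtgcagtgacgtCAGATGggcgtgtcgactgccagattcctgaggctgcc
Tp63, chr11:88554178-88554427, minus strand: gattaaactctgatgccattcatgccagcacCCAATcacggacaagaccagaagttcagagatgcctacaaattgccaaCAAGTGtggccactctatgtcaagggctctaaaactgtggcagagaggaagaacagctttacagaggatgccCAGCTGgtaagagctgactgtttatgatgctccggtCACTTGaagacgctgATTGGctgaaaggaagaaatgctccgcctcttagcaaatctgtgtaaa
Counted back from the start, Lamb3 held E-boxes at -80 and -38 and a CCAAT box at -196. Tp63 held E-boxes at -171, -99 and -63 and CCAAT boxes at -219 and, on the opposite strand, at -48. Among 33469 promoters of the same length 65.5% held an E-box and 34.0% a CCAAT box, searched on both strands. The letters of an AP-1 site (TGANTCA, in 6.34% of promoters), a GC box (GGGCGG, 30.5%) or a TATA box (TATAAA, 12.9%) were in neither window.

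Between animals the 4 genes did not move as 1 block. The 6 pairs gave Pearson's r from -0.62 to 0.46 over 14 animals, and 0 pairs had an adjusted permutation p under 0.05. Lamb3 and Tp63 had the relation of largest size, with r of -0.62 (permutation p = 0.0217, adjusted p = 0.130 over 6 pairs) and rho of -0.48 (permutation p = 0.0855). Sham animal 6 had the lowest Lamb3 and the highest Tp63 value of the 14 animals. Without sham animals 3 and 6, the farthest from the median of Lamb3, r was -0.425, and without sham animal 6 alone it was -0.321. Without exposed animal 3 and sham animal 6, the farthest from the median of Tp63, r was -0.215. It was -0.284 among exposed and -0.697 among sham animals, and -0.602 within slide 3. With values centred within slides r was -0.760 (permutation, adjusted p = 0.00990), and with quantile normalization it was -0.167. The centred values were permuted across slides, so p-values of values centred within slides, here and below, may be too small. With the second Tp63 probe r was 0.0885, so the relation belonged to 1 of the 2 Tp63 probes.

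Itgb4 and Lamb3, the chains of a receptor and of its ligand, gave r of 0.46 (permutation p = 0.100, adjusted p = 0.301) and rho of 0.54 (permutation p = 0.0478). With quantile normalization r was 0.756 (permutation, adjusted p = 0.00606), the 1 pair past the threshold in that setting. Without exposed animals 2 and 4, the farthest on Itgb4, r was 0.510. The pair gave 0.327 among exposed animals, 0.556 among sham animals and 0.355 within slide 3. For Itgb4 and Cdh3 r was 0.34, for Lamb3 and Cdh3 0.31, for Itgb4 and Tp63 -0.20 and for Tp63 and Cdh3 0.15.

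Lamb3 varied between animals together with the basal keratins and with 2 lists of other cell types. Each gene was set beside the mean of 12 marker lists of skin cell types in the same animal, 48 relations in all, and the 3 with an adjusted permutation p under 0.05 were all of Lamb3. Its r was 0.848 with the basal keratins Krt5, Krt14 and Krt15 (permutation, adjusted p = 0.00792; rho 0.727), 0.891 with the Schwann cell list (permutation, adjusted p = 0.00288; rho 0.833) and 0.797 with the endothelial list (permutation, adjusted p = 0.0211; rho 0.587). Within the groups r was 0.785 among exposed and 0.859 among sham animals for basal keratins, 0.888 among exposed and 0.894 among sham animals for the Schwann cell list, and 0.714 among exposed and 0.860 among sham animals for the endothelial list. Within slide 3 r was 0.90 for basal keratins, 0.771 for the Schwann cell list and 0.413 for the endothelial list.

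These relations leaned on sham animal 6, which was lowest on all 3 lists and lowest for Lamb3. Without it r was 0.687 for basal keratins (permutation, adjusted p = 0.174), 0.785 for the Schwann cell list (adjusted p = 0.0638) and 0.572 for the endothelial list (adjusted p = 0.230), and 0 of the 48 relations passed. Without the 2 arrays farthest on each list r was 0.573, 0.778 and 0.503. The basal keratin mean ran from -0.21 to 0.079 in exposed and from -0.54 to 0.17 in sham animals. The Schwann cell mean ran from -0.22 to 0.21 in exposed and from -0.46 to 0.16 in sham animals, over 10 of 10 listed genes. The endothelial mean ran from -0.24 to 0.28 in exposed and from -0.87 to 0.22 in sham animals, over 8 of 10 listed genes. Sham animal 6 was also lowest on the outer root sheath (-1.06), adipocyte (-1.37) and sebocyte (-0.17) lists, but not on the remaining marker lists. Of the partner lists described below it was lowest for the plaque and basement membrane (-0.38), focal adhesions (-0.44) and adherens junctions and desmosomes (-0.16), but not for the others. The brighter Tp63 probe had r of -0.740 to basal keratins (permutation, adjusted p = 0.0722), although p63 and these keratins mark the same cells. That r was -0.484 without sham animal 6 and -0.332 with quantile normalization, and with values centred within slides it was -0.831 (permutation, adjusted p = 0.00276). The negative sign was not particular to basal keratins. The same probe had r of -0.683 with the Schwann cell list (centred within slides -0.883) and -0.589 with the sebocyte list. It had -0.551 with the macrophage and dendritic cell list and -0.496 with the endothelial list, and over all arrays none of these passed. Only the suprabasal list gave r above 0, at 0.0315, which was -0.710 with quantile normalization (permutation, adjusted p = 0.0295). Cdh3 had r of 0.606 with the hair matrix and inner root sheath list and -0.588 with the suprabasal list (permutation, adjusted p = 0.158 for each). Without sham animal 6 these were 0.644 and -0.606. Itgb4 had r of 0.443 with basal keratins (permutation, adjusted p = 0.321). With quantile normalization Itgb4 passed with 3 lists, at r of 0.744 for basal keratins (permutation, adjusted p = 0.0107), 0.718 for the Schwann cell list (adjusted p = 0.0295) and 0.747 for the endothelial list (adjusted p = 0.0190).

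**Figure D3:**
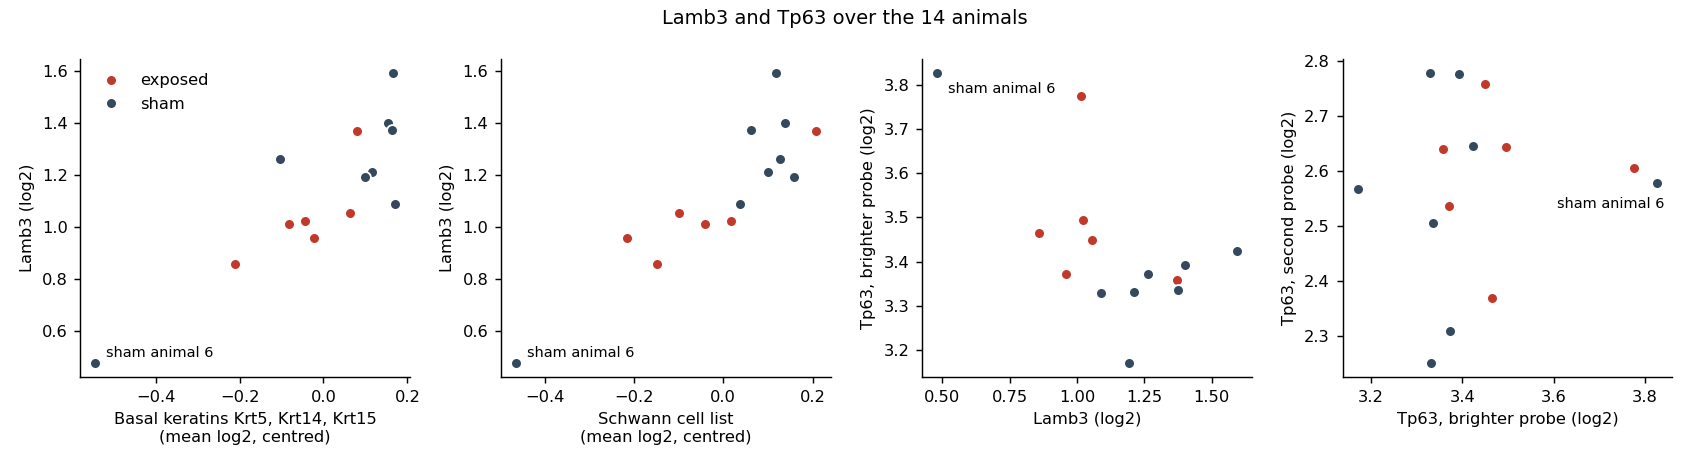
Each point is 1 of the 14 animals, exposed in red and sham in dark blue; all axes are on the log2 scale, and the marker lists are means centred gene by gene. Lamb3 increases with the basal keratins (r 0.848) and the Schwann cell list (r 0.891), and runs against the brighter Tp63 probe (r -0.62). The Tp63 probes show little relation to each other (r 0.104). Sham animal 6 lies at the edge of the first 3 panels on both axes, and of the last panel on the axis of the brighter Tp63 probe.

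The signal of the array was set beside the same genes. Over 14 animals the brighter Tp63 probe had r of -0.763 with the log2 75th percentile of its array (permutation, adjusted p = 0.0438 over 17 relations) and rho of -0.41 (permutation p = 0.15). Without exposed animal 3 and sham animal 6, the dimmest arrays, r was -0.0893, so the relation rests on those samples. For Lamb3 r was 0.599 (permutation, adjusted p = 0.111) and 0.0612 without the same animals. For Itgb4 it was -0.0022. For Cdh3 and the second Tp63 probe r kept its sign and was larger in size without these 2 animals. It was 0.756 for Cdh3, against 0.223 over all 14, and -0.730 for the second Tp63 probe, against -0.425 over all 14. Neither passed over all 14 (permutation, adjusted p = 0.537 and 0.199). Among the marker lists the outer root sheath list passed, with r of 0.726 (permutation, adjusted p = 0.0438), and 0.692 without these 2 animals. The hair matrix and inner root sheath list, to which Cdh3 had r of 0.606, gave 0.556 (permutation, adjusted p = 0.111), and 0.806 without them. The part of array signal in the values of these genes and lists was not tested.

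The partners of these genes in the plaque and the basement membrane gave small differences. Of the 22 listed partners 14 were measured, 3 higher and 11 lower in exposed skin, with a median difference of -0.0553 against -0.0193 for all genes, and 0 passed. Of all genes tested 7995 were higher and 10602 lower, which is the background for this split and those of the lists that follow. Itgb1, the beta chain that pairs with alpha 3, averaged 0.60 ± 0.080 (SD, n = 6) in exposed rats, against 0.72 ± 0.088 (SD, n = 8) in sham rats, which makes a difference of -0.12. With the mean of its probes the Itgb1 difference was -0.0595. Plec, the plectin that anchors Itgb4 to keratin, averaged 3.86 ± 0.13 (SD, n = 6) in exposed rats, against 3.98 ± 0.095 (SD, n = 8) in sham rats, also differing by -0.12. Col7a1, the collagen of the anchoring fibrils below the hemidesmosome, differed by -0.21 with SDs of 0.31 in exposed and 0.37 in sham skin. Krt5, Krt14 and Krt15, the keratins that the plaque anchors, differed by -0.055, -0.056 and -0.080. Krt5 differed by -0.191 without sham animal 6, by -0.0158 without sham animal 3 and by 0.0434 with the basal keratin mean as a covariate. Blocking on slide gave -0.142 for Krt5, -0.119 for Krt14 and -0.176 for Krt15. With single arrays left out Krt14 ran from -0.113 (sham animal 6) to -0.0133 (exposed animal 6) and Krt15 from -0.131 (sham animal 6) to -0.0458 (exposed animal 6).

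**Figure D4:**
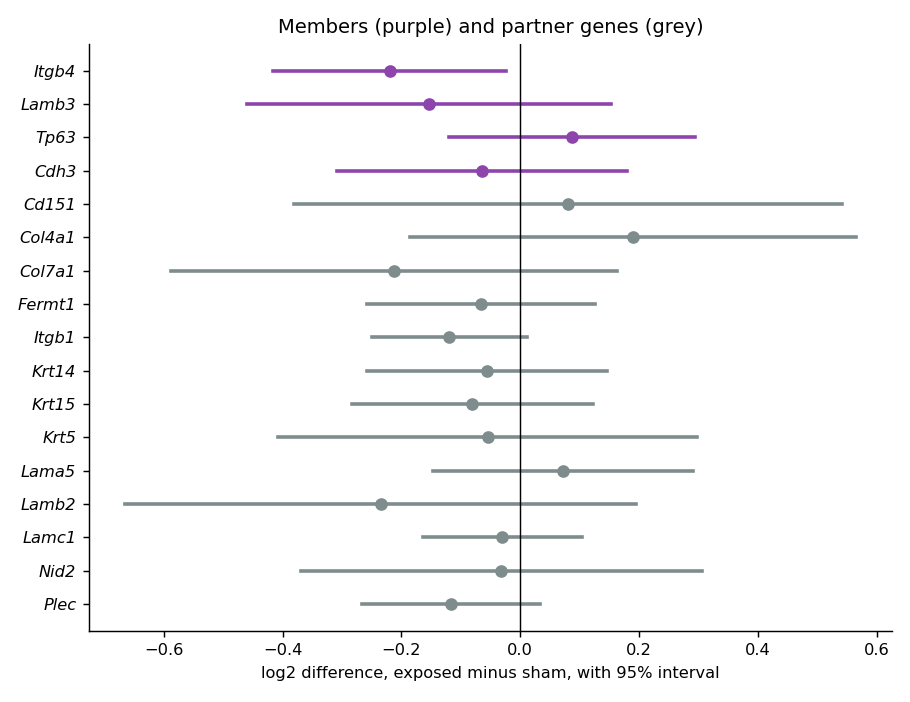
Log2 difference, exposed minus sham, with its 95% interval for the 4 measured genes (purple) and measured partners of hemidesmosome and basement membrane (grey). The interval of Itgb4, from -0.42 to -0.024, is the one drawn that does not hold 0.

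Genes of focal adhesions, the other integrin plaque of the cell, were split 9 higher to 4 lower among 13 measured of 17 listed, with a median of 0.0603 and 0 past the test. Tln1, the talin that activates integrins, averaged 1.48 ± 0.19 (SD, n = 6) in exposed rats, against 1.65 ± 0.13 (SD, n = 8) in sham rats, which makes a difference of -0.18. Lims1, a partner of the integrin-linked kinase, averaged -0.086 ± 0.14 (SD, n = 6) in exposed rats, against -0.25 ± 0.19 (SD, n = 8) in sham rats, which makes a difference of 0.17 that was 0.109 without sham animal 6.

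Adherens junction and desmosome genes, the cell-to-cell counterparts of Cdh3, were split 5 higher to 8 lower among 13 measured of 19 listed, with a median of -0.0556 and 0 past the test. Jup, the plakoglobin shared by both junctions, averaged 3.54 ± 0.057 (SD, n = 6) in exposed rats, against 3.67 ± 0.16 (SD, n = 8) in sham rats, which makes a difference of -0.13. Dsg3, a desmosomal cadherin of the lower epidermis, averaged -1.68 ± 0.12 (SD, n = 6) in exposed rats, against -1.55 ± 0.15 (SD, n = 8) in sham rats, also differing by -0.13, which was -0.0830 with slide as a block. Cdh1, the E-cadherin found through the epidermis, differed by -0.055 and varied little, with SDs of 0.031 in exposed and 0.072 in sham skin.

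Partners and targets of p63 were split 3 higher to 10 lower among 13 measured of 16 listed, with a median of -0.0435 and 0 past the test. Dlx3, a homeobox factor of the differentiating epidermis and hair follicle, averaged 0.63 ± 0.35 (SD, n = 6) in exposed rats, against 0.29 ± 0.29 (SD, n = 8) in sham rats, which makes a difference of 0.34. The Dlx3 difference was 0.196 with the hair matrix and inner root sheath list, which also names Dlx3, as a covariate, 0.556 with slide as a block and 0.211 without exposed animal 6. That hair list, with 13 of 17 genes measured, ran from -1.37 to 1.56 in exposed and from -1.49 to 1.17 in sham animals. It averaged 0.36 ± 1.02 (SD, n = 6) in exposed animals, against -0.27 ± 1.06 (SD, n = 8) in sham animals. Klf5 averaged 0.62 ± 0.15 (SD, n = 6) in exposed rats, against 0.78 ± 0.25 (SD, n = 8) in sham rats, which makes a difference of -0.16 that was -0.0881 without sham animal 6.

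Among proteases that cut adhesion and basement membrane proteins 1 of 9 measured genes was higher and 8 lower in exposed skin, of 10 listed, with a median of -0.125 and 0 past the test. Mmp14, a membrane-bound matrix metalloproteinase, averaged 3.44 ± 0.20 (SD, n = 6) in exposed rats, against 3.74 ± 0.28 (SD, n = 8) in sham rats. Its difference was -0.30 with an unadjusted limma p of 0.0336 and an adjusted p of 1.00, and it was -0.176 with slide as a block and -0.162 within slide 3. Mmp2, a gelatinase that Mmp14 activates, averaged 4.40 ± 0.29 (SD, n = 6) in exposed rats, against 4.68 ± 0.28 (SD, n = 8) in sham rats, which makes a difference of -0.28 that was -0.178 without exposed animal 3. Bmp1, which processes procollagens and laminin chains, differed by -0.18.

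The genes whose values were most like those of the 4 were sought among 11308 other genes with a symbol, by Pearson's r over 14 animals and as a description only. Closest to the mean of the 4, each centred, were Crim1 (r 0.906) and Anks3 (r 0.906), followed by Pelp1, Lrrc47, Stard9, Bbs4, Atp6v0a1, Taf1c, Septin4 and Dvl1, the last with r of 0.871. Each member had a different nearest gene: Bcl9 for Itgb4 (r 0.876), Ehmt2 for Lamb3 (r 0.977), Usp40 for the brighter Tp63 probe (r 0.916) and Foxp1 for Cdh3 (r 0.856). All points share the array's scaling, and sham animal 6 is among them.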

How the data were processed

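Total RNA from skin biopsies of 6 exposed and 8 sham rats was Cy3-labelled and hybridised to 1 array per animal, per the labels. The deposited scanner files hold spot intensity on a linear scale, made with Agilent Feature Extraction 10.7.3.1 per the file headers, which subtracts background from each spot. Log2 values of 15168 probes make up the authors' deposited table, each centred on its median over the arrays, with column medians from -0.0086 to 0.012. It tracked quantile-normalized signals at r of 0.999, which settles its scale and direction, with the normalization not given in the sources used here.

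Of 62976 spots, 4259 control spots and spots marked as outliers were left out. Processed signals were put on the log2 scale, the array's 75th percentile was taken off and repeated spots of a probe became their mean. Probes stayed if well above background on at least 6 of 14 arrays, leaving 21014 of 30367 probes. RefSeq (assembly GRCr8) gave a symbol for 17998 probes (59.3%). A probe without a symbol stood under its accession or name and was counted as a gene. For a gene with several kept probes the brightest was used. All 5 probes of the 4 measured members passed the filter.

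The groups were compared by limma 3.58.1 under R 4.3.3 (lmFit, eBayes, two-sided p, Benjamini-Hochberg over all genes) and slides by an F-test with group in the model. Correlations over animals used two-sided permutation tests with 100000 resamples (SciPy 1.17.1). The fits were tested on simulated data. Alternatives covered background correction, scaling, filters, probe choice, the authors' values, slide, array weights, composition covariates and each array left out. The number of arrays limits the precision.

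The members, partner lists and marker lists were chosen with earlier results of these data known. Named are all members, the 2 genes of smallest p in each partner list, the 10 genes nearest the members' mean and the nearest gene of each member. Krt5, Krt14, Krt15, Krt1, Col7a1, Cdh1 and Bmp1 were named outside that rule, as examples, with their values seen. Some listed genes enter the counts but are not reported here by name. Animal numbers only name animals. Rats shared cages in pairs, but the sources used here do not say which, so p-values treat animals as independent.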

Additional observations from a re-analysis of the deposited data

Results flagged for a closer look

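In 4 of 10 sets of values (5 probes, each in exposed and in sham animals) 1 animal lay far from the others of its group by Dixon's test, which chance gives in about 1 of 20 sets. For the brighter Tp63 probe it was exposed animal 3, at 3.78, and sham animal 6, at 3.83, whose arrays had the lowest signals of all 14. Sham animal 6 was also far below the other sham animals for Lamb3, at 0.48. For Cdh3 it was sham animal 1, at -0.46. Neither animal stood apart on the second Tp63 probe, with 2.61 in exposed animal 3 and 2.58 in sham animal 6.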

How the results depend on the processing

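Of the 4 members, 0 passed over all genes in any of 15 other settings or with any array left out, and of all genes 0 did in each of these fits. Counts of genes at an unadjusted limma p under 0.05 ran from 294 (within slide 4) to 2365 (array weights), beside 636. Itgb4, Lamb3 and Tp63 kept their direction in all of these. Array weights gave -0.324 for Itgb4 (limma, adjusted p = 0.207) and -0.307 for Lamb3 (limma, adjusted p = 0.237). With single arrays left out the differences ran from -0.279 to -0.154 for Itgb4, from -0.256 to -0.0973 for Lamb3, from 0.0296 to 0.149 for Tp63 and from -0.125 to 0.0207 for Cdh3. The sign turned for Cdh3 when slide was a block (0.0365), on slide 3 alone (0.0230), on slide 4 alone (0.0636) and without exposed animal 1 (0.0207), and for Krt5 with basal keratins as a covariate (0.0434), which hold Krt5. The causes were not tested.

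Pairs of members past the adjusted threshold numbered 0, and 1 with quantile normalization (Itgb4 and Lamb3) or with values centred within slides (Lamb3 and Tp63). With the second Tp63 probe r turned to 0.0342 with Itgb4, 0.0885 with Lamb3 and -0.412 with Cdh3, and Tp63 and Cdh3 turned to -0.152 without exposed animal 3 and sham animal 6. Relations of members to marker lists numbered 3, and 0 without sham animal 6, 7 with quantile normalization and 5 with values centred within slides. These last 3 alternatives, the second probe and the pairs without sham animal 6 were chosen after seeing the data. Values centred within slides were permuted across slides, so their p-values may be too small and their counts too high. Slides 1 and 2 held 1 group each, and there exposure and slide cannot be told apart. No paired analysis was possible because the animals' numbers only name them.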
